A study of Mus musculus with 48 samples.

Results

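The late step of adipocyte differentiation in mouse embryonic fibroblasts (MEFs) without HMGN1 and HMGN2 was measured by RNA-seq, as 3 libraries of DKO cells at day 12 against 3 at day 8. These 6 of the 48 libraries of the series were chosen by their titles, which give the day, the genotype and the cell type. All 6 carry the genotype Hmgn1-/- and Hmgn2-/- on a C57BL/6 background, and the MEFs were made from embryos of embryonic day 13.5 and used within passage 3. After confluence the cells were kept in differentiation medium with insulin, dexamethasone, IBMX, T3 and rosiglitazone until day 8, and then in maintenance medium with insulin and T3 for 4 days. The labels call the day 8 cells differentiating MEF and the day 12 cells adipocytes. Between the days, therefore, the cells lost dexamethasone, IBMX and rosiglitazone and became older in culture, and these changes cannot be told apart here. The same step in WT MEFs (3 libraries a day, same strain and media) was used as the nearest comparison.

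HMGN1 and HMGN2 are small proteins that bind nucleosomes without regard to DNA sequence and are found at enhancers and promoters of the genes that give a cell its identity. A fibroblast becomes an adipocyte when PPARG and the C/EBP factors switch on genes for lipid uptake, synthesis and storage. Rosiglitazone is a ligand of PPARG, dexamethasone activates the glucocorticoid receptor, and IBMX blocks phosphodiesterases and so raises cyclic AMP. Brown and brown-like adipocytes also burn fatty acids in mitochondria that carry UCP1.

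The 6 libraries held 21261908 to 27061316 counts (median 24001464), and the 10 genes with the most counts took 8.3% to 10.1% of a library. Values are given as CPM, counts normalised to the size of each library with edgeR's TMM factors over the 6 libraries, and as log2 fold changes of day 12 against day 8 ± standard error. Adjusted p is the Benjamini-Hochberg value of edgeR's quasi-likelihood test over all genes tested, and a gene counted as called where this value was below 0.05 and the change was 1.5-fold or more. The labels do not say whether the numbered libraries came from separate embryos or cultures, so p-values measure the spread between these libraries only. One library stood apart from its group. DKO day 8 replicate 3 had a Pearson correlation of 0.970 and 0.980 over 16996 genes with the other day 8 libraries, which had 0.994 with each other, whereas it had 0.992 with WT day 8 replicate 2 and a mean of 0.989 with the DKO day 4 libraries. The day 12 libraries had correlations of 0.993 to 0.995 among themselves. DKO day 4 replicate 3 leaned the other way. DKO day 8 replicate 2 had its highest correlation outside its group with that library (0.991), and the deviations of that library from the day 4 mean correlated at 0.56, 0.48 and -0.66 with those of day 8 replicates 1, 2 and 3 from the day 8 mean. Deviations of 3 libraries from their mean are not independent of each other. The highest correlation of DKO day 4 replicate 3 itself outside its group was with WT day 4 replicate 1 (0.992), a library of its own day. By the DKO values both libraries numbered 3 leaned toward the other day. Whether labels were exchanged or cultures differed in how far they had differentiated was not tested. All libraries were kept under their labels. List counts are given with and without DKO day 8 replicate 3 where they differed. So is each gene named with its log2 fold change, where its call changed or that change moved by more than 1.5-fold without this library.

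The targeted genes were read first. Hmgn2 (chromosome 4, 133964738 to 133968650, mm10) had 0, 0 and 0.108 CPM at day 8 and 0, 0 and 0 at day 12, where the WT libraries had 148, 143 and 150.1 CPM at day 8 and 48.8, 43.9 and 42.96 at day 12. It stayed under the filter on low counts in DKO cells and was not tested. Hmgn1 (chromosome 16, 96120618 to 96127729) kept 109, 102 and 82.5 CPM at day 8 and 93.2, 80.5 and 89.5 at day 12 in DKO cells, with a log2 fold change of -0.15 ± 0.12 (adjusted p = 0.328). Counts are per gene, so reads from a transcript without the deleted exons cannot be told apart from others. Hmgn3 and Hmgn5, further members of the family, stood at -0.98 (adjusted p = 0.0505) and -0.17 (adjusted p = 0.177) on the log2 scale, neither called. Hmgn3 varied at day 8, with 33.96, 47.1 and 82.4 CPM, and 29.7, 24.1 and 29.1 at day 12. It was called lower without day 8 replicate 1 (adjusted p = 0.0136), whereas without replicate 3, its highest library, it had -0.56 (adjusted p = 0.0132), short of 1.5-fold.

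Of 15302 genes tested, 1922 (12.6%) were called higher and 1755 (11.5%) lower at day 12, together 3677 (24%). The counts of every list below are to be read against these shares. The change was at least 4-fold for 386 of the higher and 276 of the lower genes. The CPM of the 3 libraries of a day did not overlap with those of the other for 8665 genes (56.6%), 4283 of them higher (28%) and 4382 lower (28.6%). Without DKO day 8 replicate 3, 2254 genes of 15498 (14.5%) were called higher and 1932 (12.5%) lower (27% in all), and 3296 genes were called in both fits, each with the same sign, which is 89.6% of the calls with all libraries and 78.7% of those without that library. The balance of the calls depended on the samples fitted together and on the scaling. In 1 fit over all 24 MEF libraries, 63.8% of the calls were higher (2592 against 1470) instead of 52.3%, and the median log2 fold change of all genes moved from -0.02 to 0.09. With the same 6 libraries scaled by library size only, 44.7% were higher (1697 against 2097), and the median was -0.09.

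**Figure D1:**
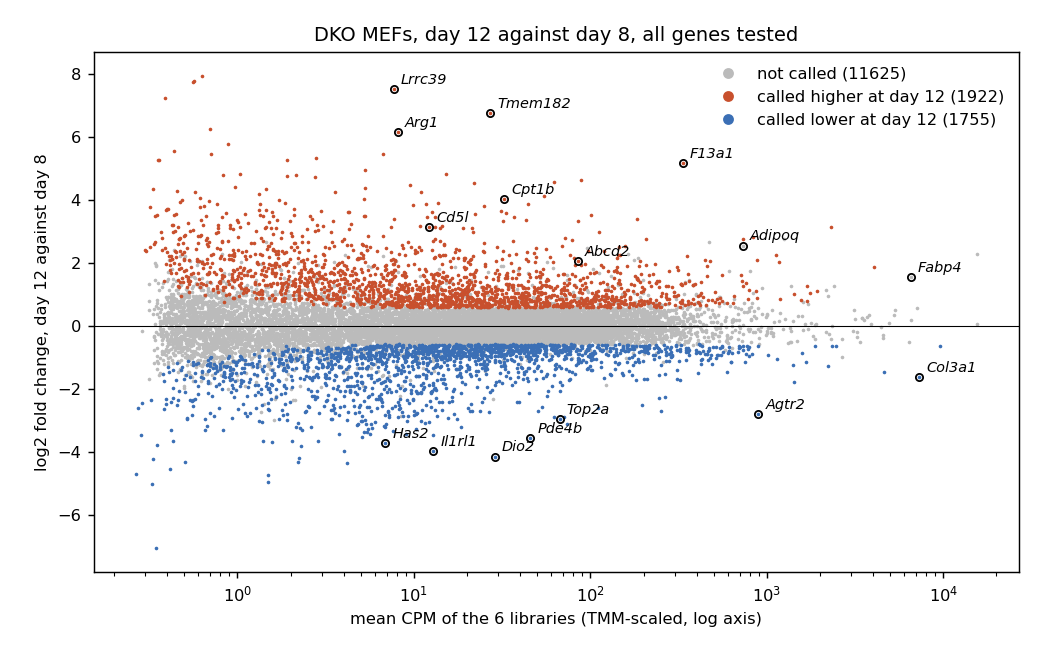
Each point is a gene tested in the DKO step, with the mean CPM of the 6 libraries on the x axis (log scale) and the log2 fold change of day 12 against day 8 on the y axis. Genes called higher (1922) are red, genes called lower (1755) blue and the rest grey, and circles mark genes named in the text, the highest of them Lrrc39 at 7.52 and the lowest Dio2 at -4.15.

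The genes with the smallest p-values were named only where the libraries of the 2 days did not overlap. A small p also favours genes whose libraries of a day lie close together, so neither trait is a result about them. Among those called higher were Abcd2, a transporter of very long-chain fatty acids into peroxisomes, Phospho1, a phosphatase of choline and ethanolamine phosphates, and Gbe1, the glycogen branching enzyme. Abcd2 (chromosome 15, 91145871 to 91191799) had 33.03, 32.3 and 32.9 CPM at day 8 and 131, 146 and 134 at day 12, a log2 fold change of 2.06 ± 0.07 (adjusted p = 8.92e-05). Phospho1 had 10.4, 10.7 and 10.1 CPM at day 8 and 52.5, 58.3 and 49.8 at day 12 (2.37 ± 0.09, adjusted p = 9.87e-05). In both genes all 3 day 12 libraries lay far above all 3 of day 8, and day 8 replicate 3 did not stand apart from the others. Ablim1 (2.25), Cd5l (3.13), Maff (2.12), Gbe1 (1.78), Gsdme (2.26) and Sbk1 (1.51) completed the first 8, with adjusted p-values between 9.59e-05 and 0.000149. By size of change, 5 genes with at least 10 CPM at day 12 led. Lrrc39 (chromosome 3, 116562973 to 116583134), a leucine-rich repeat protein of the sarcomere in muscle, rose from 0.139, 0.1099 and 0 to 15.1, 18.05 and 12.8 CPM, a log2 fold change of 7.52 ± 0.46 that rests on few counts at day 8 and was 6.9003 without day 8 replicate 3. Tmem182 rose by 6.75 ± 0.53 from 0.973, 0.549 and 0.0359 to 47.4, 60.6 and 52.1 CPM, and by 7.496 and 6.16 without day 8 replicates 1 and 3. Arg1, the arginase of the urea cycle and of some macrophages, rose by 6.15 ± 0.54 (7.22 without day 8 replicate 2), Apoc3, an apolipoprotein of triglyceride-rich particles, by 5.47 ± 0.38, and F13a1, the A subunit of coagulation factor XIII, by 5.18 ± 1.11. F13a1 was the most abundant of the 5 and had 26.1, 27.1 and 0.754 CPM at day 8 and 622, 712 and 618 at day 12. Its day 8 replicate 3 was far below the other day 8 libraries, and its adjusted p of 0.0128 was 0.0722 without the filter on low counts.

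Of 30 general adipocyte markers tested, 9 were called higher at day 12, none was called lower and 21 were not called, where 12.6% of all genes were called higher. The median log2 fold change was 1.62 against -0.02 over all genes, and 28 had a positive log2 fold change. Without DKO day 8 replicate 3, 20 were called higher and 2 lower (median 1.08). The number was 5 without day 8 replicate 2 or without any single day 12 library, and 11 without day 8 replicate 1. Adipoq (the adipokine adiponectin, chromosome 16, 23146536 to 23158028) had 369, 254 and 17.9 CPM at day 8 and 1243, 1269.6 and 1231 at day 12. The 3 day 12 libraries lay together above all of day 8, where replicate 3 had the lowest level by far. Its log2 fold change of 2.55 ± 0.93 was not called (adjusted p = 0.0704), whereas without that library it was 1.9995 (adjusted p = 1.75e-05). Fabp4, which carries fatty acids in the adipocyte cytosol, had 5397, 4030.2 and 602 CPM at day 8 and 10107, 9748 and 9361 at day 12, with a change of 1.54 (adjusted p = 0.125) on the log2 scale, or 1.04 (adjusted p = 0.000264) without replicate 3. Cd36, the fatty acid translocase, had 1.26 (adjusted p = 0.0649) and 0.88 (adjusted p = 0.00084) in the same fits, and it was also called without day 8 replicate 1 (adjusted p = 0.0331). Adrb3 (chromosome 8, 27225776 to 27250616), the beta-3 adrenergic receptor through which noradrenaline drives lipolysis, was called with all libraries. It had 9.82, 6.37 and 1.08 CPM at day 8 and 78.1, 96.9 and 72.1 at day 12, a change of 3.86 ± 0.65 on the log2 scale (adjusted p = 0.00537). Its lowest day 12 library was far above its highest day 8 library. Its log2 fold change was 4.47 without day 8 replicate 1 and 3.36 (adjusted p = 1.86e-05) without replicate 3. Aqp7, the glycerol channel of adipocytes, rose by 3.7998 ± 0.66 (adjusted p = 0.00609, and 4.53 and 3.28 without day 8 replicates 1 and 3), Cfd (adipsin) by 3.46 ± 0.72 (adjusted p = 0.0117) and Plin4, a lipid droplet coat protein, by 2.77 ± 0.59 (adjusted p = 0.0125). Without the filter on low counts the adjusted p was 0.0693 for Cfd and 0.0705 for Plin4. Pparg itself (chromosome 6, 115360951 to 115490399), the regulator of adipocyte fate, had 74.4, 54.5 and 19.96 CPM at day 8 and 85.3, 103 and 91.5 at day 12, a log2 fold change of 0.91 (adjusted p = 0.138). All 3 day 12 levels lay above those of day 8. Without day 8 replicate 3 it had 0.53 (adjusted p = 0.0134), short of 1.5-fold, and in the fit over all 24 libraries it was called (adjusted p = 0.0356). Lep, the gene of the adipokine leptin, had the opposite sign, with 2.64, 1.68 and 1.33 CPM at day 8 and 1.17, 1.43 and 0.725 at day 12, -0.75 (adjusted p = 0.152) with all libraries and -0.95 (adjusted p = 0.0499) without replicate 3. The 3 day 12 DKO libraries, whose label is adipocytes, held the defining markers Adipoq, Fabp4 and Plin1 at 649.6 CPM or more. In bulk libraries such as these, fewer cells of a type and less RNA per cell cannot be told apart.

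**Figure D2:**
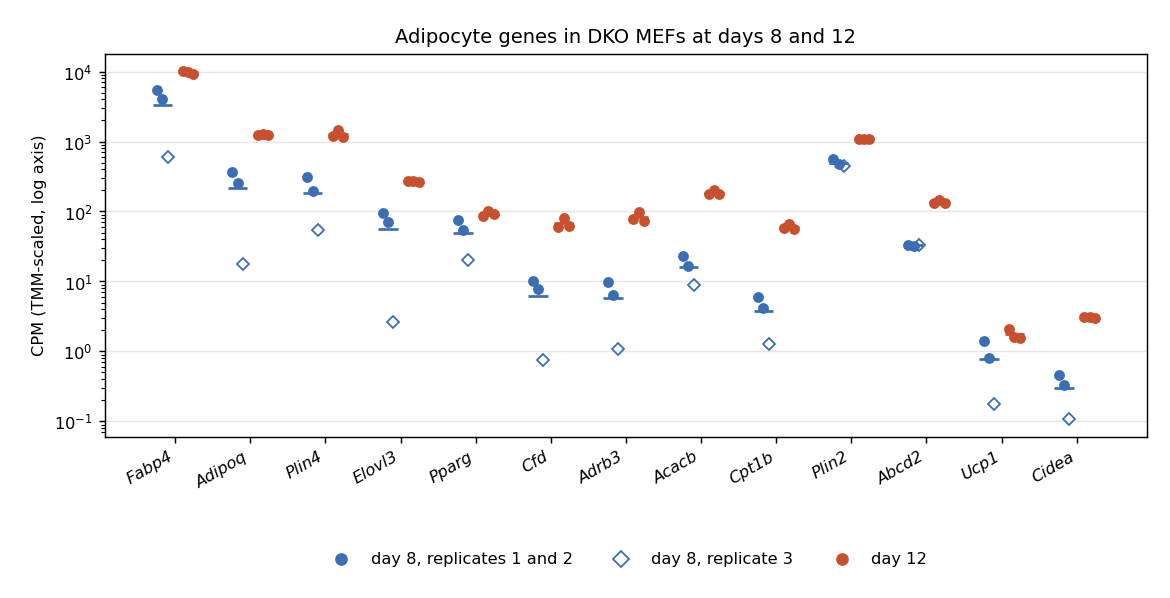
CPM (log axis) of 13 adipocyte genes in the DKO libraries of day 8 (blue) and day 12 (red), with bars at the group means and an open diamond for day 8 replicate 3. The day 12 points of a gene lie together, the diamond lies lowest for genes such as Adipoq and Elovl3, and it lies with the other day 8 points for Abcd2.

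Of 26 brown adipocyte markers tested, 9 were called higher and 2 lower, and 21 had a positive log2 fold change (median 1.06, and 13 and 3 called with a median of 0.69 without DKO day 8 replicate 3). The number lower was under the share of all genes called lower (11.5%). Ucp1 (chromosome 8, 83290352 to 83298452), the uncoupling protein, was low, with 1.39, 0.806 and 0.1795 CPM at day 8 and 2.08, 1.61 and 1.55 at day 12. The lowest day 12 library lay just above the highest of day 8, and its log2 fold change of 1.17 ± 0.60 was not called (adjusted p = 0.159, and 0.121 without replicate 3). Cidea, a protein of lipid droplet fusion and a marker of brown fat, had 0.463, 0.3297 and 0.108 CPM at day 8 and 3.14, 3.08 and 2.996 at day 12. It was called, with 3.37 ± 0.42 (adjusted p = 0.00159), at a low level in every library. Elovl3, an elongase of very long-chain fatty acids induced in brown fat, had 96.2, 69.7 and 2.62 CPM at day 8 and 277, 269.9 and 267 at day 12. All 3 day 12 libraries were above all of day 8, and day 8 replicate 3 was far below the others of its day. The log2 fold change was 2.27 ± 1.01 (adjusted p = 0.12) with it and 1.71 (adjusted p = 1.95e-05) without it. Cpt1b (chromosome 15, 89416405 to 89425863), the muscle and brown fat form of the carnitine palmitoyltransferase that admits fatty acids to mitochondria, rose from 5.93, 4.14 and 1.29 to 58.7, 66.7 and 57.1 CPM (4.03 ± 0.47, adjusted p = 0.00147). Cox7a1, a subunit of cytochrome oxidase in muscle and brown fat, rose by 3.15 ± 0.40 to 13.9, 12.8 and 13.2 CPM. The nuclear receptor gene Ppara, which controls fatty acid oxidation, had 6.25, 5.16 and 1.44 CPM at day 8 and 21.3, 32.96 and 21.6 at day 12 and was called (2.57 ± 0.50, adjusted p = 0.00887). The coactivator gene Ppargc1b had 15.6, 8.09 and 3.27 CPM at day 8 and 16.3, 20.5 and 15.1 at day 12 with overlapping libraries (0.96, adjusted p = 0.178). Leaving out day 8 replicate 1, its highest library of that day, Ppargc1b was called (adjusted p = 0.0256), and leaving out replicate 3 it was not, at 0.56 (adjusted p = 0.127). The 2 markers called lower were Dio2, described with the cyclic AMP genes, and Zic1, with 12.4, 15.6 and 15.1 CPM at day 8 and 6.696, 9.25 and 8.02 at day 12 (-0.85 ± 0.16, adjusted p = 0.00703).

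Lipid droplet, synthesis and sterol genes were described by 3 lists. Of 25 genes of fatty acid and triglyceride synthesis, 14 were called higher and none lower (median 1.32), with 17 and 1 (median 1.10) without DKO day 8 replicate 3, 9 without day 12 replicate 2, and 9 without day 8 replicate 2. Acacb (chromosome 5, 114146535 to 114250761), the mitochondrial acetyl-CoA carboxylase, had 22.9, 16.9 and 8.87 CPM at day 8 and 177, 200.1 and 179 at day 12, a log2 fold change of 3.52 ± 0.34 (adjusted p = 0.000764). Acly, which makes cytosolic acetyl-CoA from citrate, had 449.7, 354 and 208 CPM at day 8 and 1656, 994 and 1643 at day 12 (2.09 ± 0.34, adjusted p = 0.0045), with day 12 replicate 2 lowest of its day and still above every day 8 library. Me1, the malic enzyme that supplies NADPH, rose by 2.24 ± 0.41 (adjusted p = 0.00689), and Agpat3, an acyltransferase of phospholipid and triglyceride synthesis, by 1.32 ± 0.07 (adjusted p = 0.000179). Srebf1, the regulator of this pathway, had 399, 290.2 and 100.2 CPM at day 8 and 382, 469.8 and 388 at day 12 and was not called (0.65, adjusted p = 0.294, and 0.26, adjusted p = 0.178, without day 8 replicate 3). Of 16 lipid droplet and lipolysis genes, 3 were called higher (Plin2, Plin4 and Cidea) and none lower, with 8 without DKO day 8 replicate 3 and 5 without day 8 replicate 1. The 3 of 16 stand beside 12.6% of all genes called higher. Plin2, the perilipin of most cell types, had 563, 484 and 442 CPM at day 8 and 1099, 1102 and 1075 at day 12, tightly grouped within each day (1.14 ± 0.11, adjusted p = 0.000651). Plin1, the perilipin of adipocytes, had 593, 421 and 110.3 CPM at day 8 and 649.6, 812 and 654 at day 12 and was not called (0.91, adjusted p = 0.226). Without day 8 replicate 3 it had 0.47 (adjusted p = 0.0394), short of 1.5-fold. Of 24 genes of cholesterol synthesis and uptake, 5 were called higher and none lower (median 0.40), and their number was 7 without day 8 replicate 3, 9 without day 8 replicate 1 and 3 without day 12 replicate 2, the last no larger a share than the 12.6% of all genes called higher in the fit with all libraries. The synthase gene Hmgcs1 had 750.1, 519.8 and 115 CPM at day 8 and 503, 499 and 507 at day 12, a log2 fold change of 0.12 (adjusted p = 0.883) that was -0.34 (adjusted p = 0.072) without day 8 replicate 3.

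Of 28 genes of beta-oxidation, 16 were called higher and none lower (median 1.26), 20 and 2 without DKO day 8 replicate 3, and 10 without day 8 replicate 2 or any single day 12 library. Acot2, a mitochondrial acyl-CoA thioesterase, had 4.08, 5.38 and 5.24 CPM at day 8 and 22.8, 27.8 and 18.99 at day 12 (2.24 ± 0.18, adjusted p = 0.000415) with similar levels in all day 8 libraries. Slc25a20, the carnitine-acylcarnitine carrier, rose by 1.56 ± 0.25 (adjusted p = 0.00443) and Ehhadh, the bifunctional enzyme of peroxisomes, by 2.25 ± 0.38 (adjusted p = 0.00546). Cpt1a, the liver form of the transferase, was not called (-0.27, adjusted p = 0.0923). Pdk4, a kinase that shuts pyruvate dehydrogenase, rose by 1.67 ± 0.25 (adjusted p = 0.00376). It is not in this list but among the brown adipocyte markers, PPARG targets and glucocorticoid-induced genes. Of 23 genes of the TCA cycle and pyruvate dehydrogenase, 13 were called higher and none lower (median 0.83), and 11 without day 8 replicate 3. That count was 2 without day 8 replicate 2 or day 12 replicate 2, 3 and 6 without day 12 replicates 3 and 1, and 18 without day 8 replicate 1. A count of 2 of 23 is a smaller share than the 12.6% of all genes called higher with all libraries. In that fit all 23 had a positive log2 fold change. Idh3b, a subunit of NAD-dependent isocitrate dehydrogenase, had 161, 132 and 83.7 CPM at day 8 and 259, 295 and 263 at day 12 (1.12 ± 0.23, adjusted p = 0.0105). Of 74 nuclear genes of oxidative phosphorylation, 24 were called higher and none lower with a median of 0.55, but the number called ranged widely. It was 38, 12 and 11 without day 8 replicates 1, 2 and 3 and 4, 3 and 5 without day 12 replicates 1, 2 and 3. The counts without a day 12 library were smaller shares than the 12.6% of all genes called higher with all libraries. They were also under the shares of all genes in the same fits (1410 of 15534, 1423 of 15816 and 1427 of 15850). With all libraries 72 of the 74 had a positive log2 fold change. The 13 mitochondrially encoded genes had a median of 0.35 and 1 call, a smaller share than the 12.6% of all genes called higher. The count was 3 without day 8 replicate 1. The gene called was mt-Co2, a subunit of cytochrome oxidase, with 1308, 1380 and 1006 CPM at day 8 and 2190, 2586 and 1658 at day 12 (0.8004 ± 0.20, adjusted p = 0.0182, and 0.0647 and 0.061 without day 12 replicates 1 and 2).

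Of 21 glycolysis genes, 12 were called higher and none lower (median 0.88). The number higher was 13 without DKO day 8 replicate 3 and 12 without each of the other libraries. Eno1 (chromosome 4, 150236721 to 150248879), enolase 1, had 579, 519 and 548 CPM at day 8 and 1116, 1272 and 1189.8 at day 12, a log2 fold change of 1.12 ± 0.09 (adjusted p = 0.000454). Hk2, the insulin-responsive hexokinase, had 54.3, 42.4 and 44.7 CPM at day 8 and 121, 162 and 123 at day 12 (1.52 ± 0.15, adjusted p = 0.000694), and Pfkl, a phosphofructokinase, rose by 1.09 ± 0.12 (adjusted p = 0.00107). In all 3 genes the lowest day 12 library lay above the highest of day 8. The glucose transporter gene Slc2a1 had 64.9, 77.6 and 129 CPM at day 8 and 66.4, 85.7 and 67.3 at day 12 with overlapping libraries, highest in day 8 replicate 3 (-0.31, adjusted p = 0.388, and 0.03 without it). A list of glycogen genes and a list of hypoxia-inducible genes were written after the values had been seen, and are given as descriptions. Of 18 glycogen genes, 12 were called higher and none lower (10 without day 8 replicate 3, and 7 without day 12 replicate 2), with a median of 0.96. Gbe1 had 63.7, 57.4 and 67.5 CPM at day 8 and 212, 221 and 217 at day 12 (1.78 ± 0.08), and Ppp1r3b, which brings a phosphatase to glycogen, rose by 1.66 ± 0.17 (adjusted p = 0.000149 and 0.000879). Of 20 hypoxia-inducible genes, 12 were called higher and none lower (median 0.81), 13 without day 8 replicate 3 and 10 to 12 without another library. Egln3 (chromosome 12, 54178981 to 54203860), a prolyl hydroxylase of the HIF subunits and a HIF target, had 7.27, 6.01 and 4.38 CPM at day 8 and 91.7, 123 and 93.5 at day 12, a log2 fold change of 4.13 ± 0.22 (adjusted p = 0.000179). Pdk1, like Pdk4 a kinase that shuts pyruvate dehydrogenase, rose by 2.18 ± 0.17 (adjusted p = 0.000391) and Adm, adrenomedullin, by 1.03 ± 0.09 (adjusted p = 0.000486). The lists of glycolysis and hypoxia share genes such as Hk2.

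**Figure D3:**
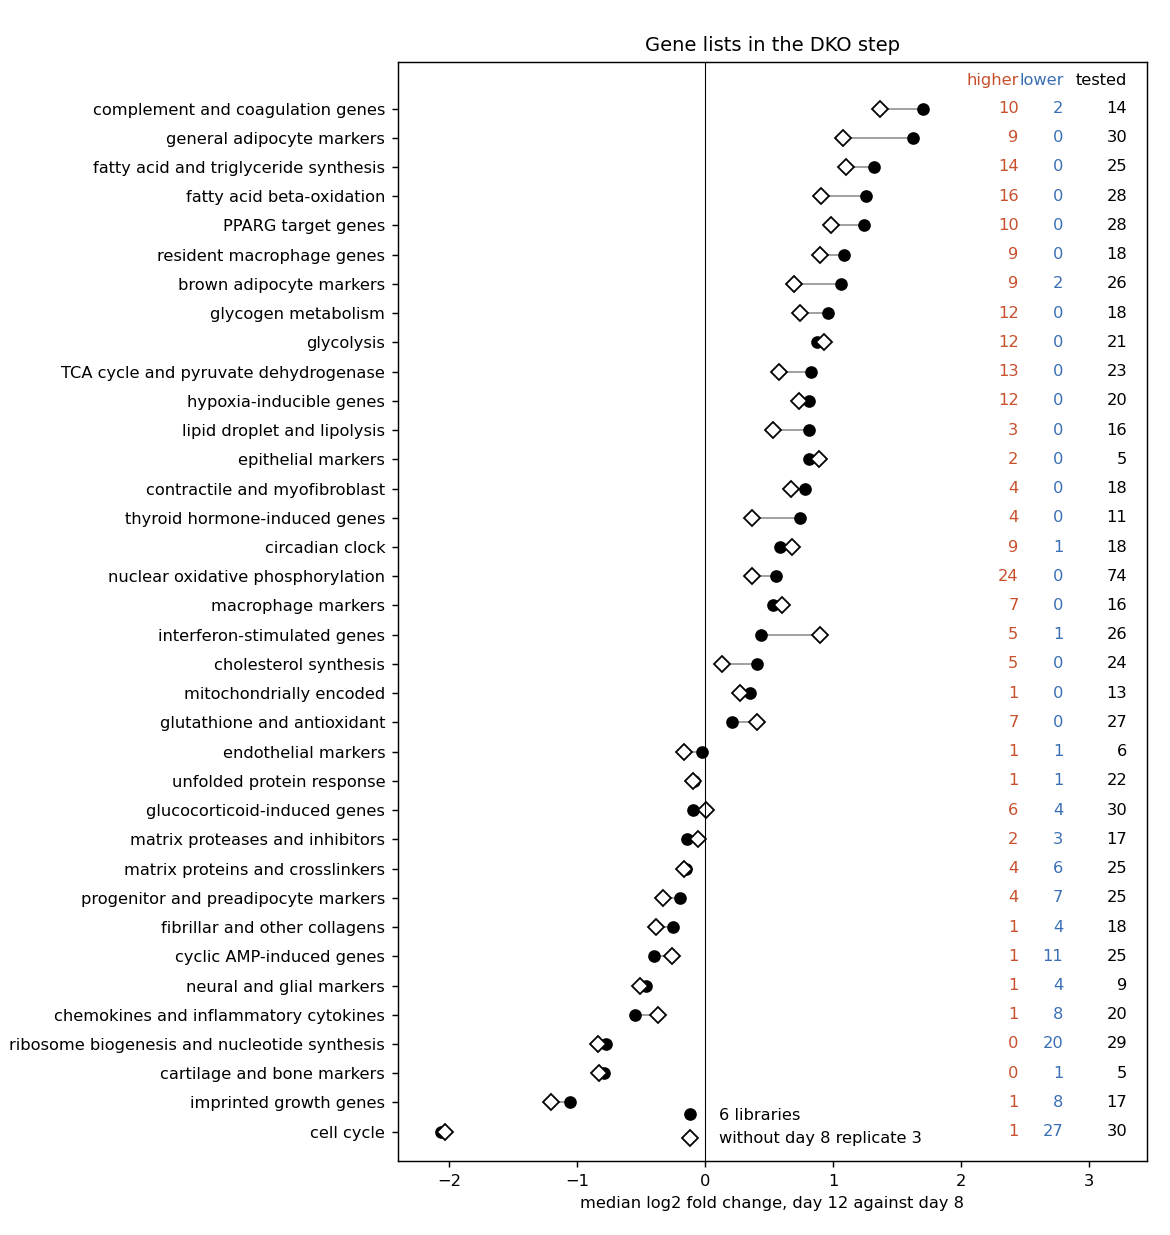
Median log2 fold change of each gene list with at least 5 genes tested, with all 6 DKO libraries (filled circles) and without day 8 replicate 3 (open diamonds), and the numbers called higher, called lower and tested at the right. Cell cycle genes lie lowest at -2.07 with 27 of 30 called lower in both fits, whereas adipocyte markers lie at 1.62 with all libraries and 1.08 without day 8 replicate 3.

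Cell cycle genes were lower at day 12 in a way that no single library decided. Of 30 tested, 27 were called lower and 1 higher, with all libraries and without each library in turn, and the median log2 fold change was -2.07. Their summed level was 1353, 1313 and 1525 CPM at day 8 and 578, 495 and 588 at day 12. Top2a (chromosome 11, 98992943 to 99024189), which untangles DNA in dividing cells, had 116, 103 and 136 CPM at day 8 and 17.7, 12.5 and 15.1 at day 12, a log2 fold change of -2.97 ± 0.16 (adjusted p = 0.000177). Ccnb1, cyclin B1 of mitosis, had 30.1, 27.98 and 30.9 CPM at day 8 and 4.39, 3.498 and 4.98 at day 12 (-2.79 ± 0.14, adjusted p = 0.000149). Both genes were several times lower in every day 12 library than in any of day 8. Among replication genes, Mcm2, a subunit of the helicase, fell by 1.94 on the log2 scale, Mcm5 fell by 2.6997, and Rrm2, which makes deoxyribonucleotides, fell by 2.56 (adjusted p = 0.000149, 0.000179 and 0.000149). Mki67, the gene of the proliferation antigen Ki-67, had 82.3, 83.4 and 114 CPM at day 8 and 24.5, 18.1 and 24.02 at day 12 (-2.07 ± 0.18) and Cdk1, the kinase of mitotic entry, which was named after its values had been seen, 43.7, 42.9 and 49.7 CPM at day 8 and 12.4, 10.7 and 13.9 at day 12 (-1.88 ± 0.12, adjusted p = 0.000208). The exception was Ccnd1, cyclin D1, with 89.7, 88.1 and 115 CPM at day 8 and 159, 143 and 168 at day 12 (0.68 ± 0.12, adjusted p = 0.00592). Outside the list, Hmgb2, a chromatin protein of dividing cells, fell by 2.02 and Spag5, a protein of the mitotic spindle, by 3.48 on the log2 scale.

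Promoter sequence was examined for the falling cell cycle genes, since their members moved together. RefSeq promoters (GRCm38.p6, from 250 bases before to 50 after the start) were matched by symbol for 23 of the 27 members called lower, and both strands were searched for a CCAAT box (CCAAT), a CHR element (TTTGAA), an E2F site (TTTCGCGC, TTTGGCGC or TTTCCCGC) and a cyclic AMP response element or CRE (TGACGTCA). A box on the other strand reads ATTGG in the sequences shown. No motif contains another. The CCAAT box was present in 20 of 23 (87%), against 41.1% of all 27025 genes with a promoter and 43.1% of the 10936 tested genes that were matched. The CHR element was present in 11 (47.8%, against 20.2% and 14.3%) and an E2F site in 5 (21.7%, against 2.12% and 3.92%). Among the 1286 matched genes called lower, 47.7% held a CCAAT box, 18.0% a CHR element and 7.08% an E2F site. Among 1367 called higher the shares were 41%, 15.5% and 2.12%. A list of ribosome biogenesis and nucleotide synthesis genes, described below, had 14 matched members called lower. An E2F site was present in 4 of these (28.6%), a CCAAT box in 5 (35.7%) and a CHR element in 2 (14.3%). These are counts of letters in a window and were not tested. The promoters of Cdk1, Mcm5 and Dio2 are shown because they hold the motifs searched. Matches are in capitals and the rest in lower case, except for an overlapping match in Mcm5. Of each promoter the 250 bases before the start are given, 5′ to 3′. Cdk1 (chr10:69352913-69353162, minus strand) has CCAAT boxes starting at -208, -80 and -48, CHR elements at -71 and -15 and an E2F site at -131, counted from the start of the transcript. Mcm5 (chr8:75109259-75109508, plus strand) has an E2F site at -153, a CRE at -99 and CCAAT boxes at -77 and -22. That E2F site overlaps another on the other strand (GCGCCAAA), which was not marked. Dio2 (chr12:90739039-90739288, minus strand) has a CRE at -95, and its RefSeq start lies upstream of the gene as annotated by GENCODE.
Cdk1: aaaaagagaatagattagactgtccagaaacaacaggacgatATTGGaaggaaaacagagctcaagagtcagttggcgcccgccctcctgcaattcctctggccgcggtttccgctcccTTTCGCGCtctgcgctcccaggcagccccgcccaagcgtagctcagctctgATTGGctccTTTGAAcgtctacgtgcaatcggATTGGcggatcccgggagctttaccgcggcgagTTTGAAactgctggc
Mcm5: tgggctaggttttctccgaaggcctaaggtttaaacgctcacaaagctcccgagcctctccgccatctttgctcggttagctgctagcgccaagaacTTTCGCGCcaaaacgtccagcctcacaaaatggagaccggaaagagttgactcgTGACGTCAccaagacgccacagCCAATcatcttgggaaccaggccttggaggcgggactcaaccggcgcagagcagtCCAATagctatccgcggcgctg
Dio2: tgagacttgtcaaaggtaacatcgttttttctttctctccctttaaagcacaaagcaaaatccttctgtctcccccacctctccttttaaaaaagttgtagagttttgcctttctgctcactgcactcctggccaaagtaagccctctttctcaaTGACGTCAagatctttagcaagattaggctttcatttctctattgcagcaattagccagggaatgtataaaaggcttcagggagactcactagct

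**Figure D4:**
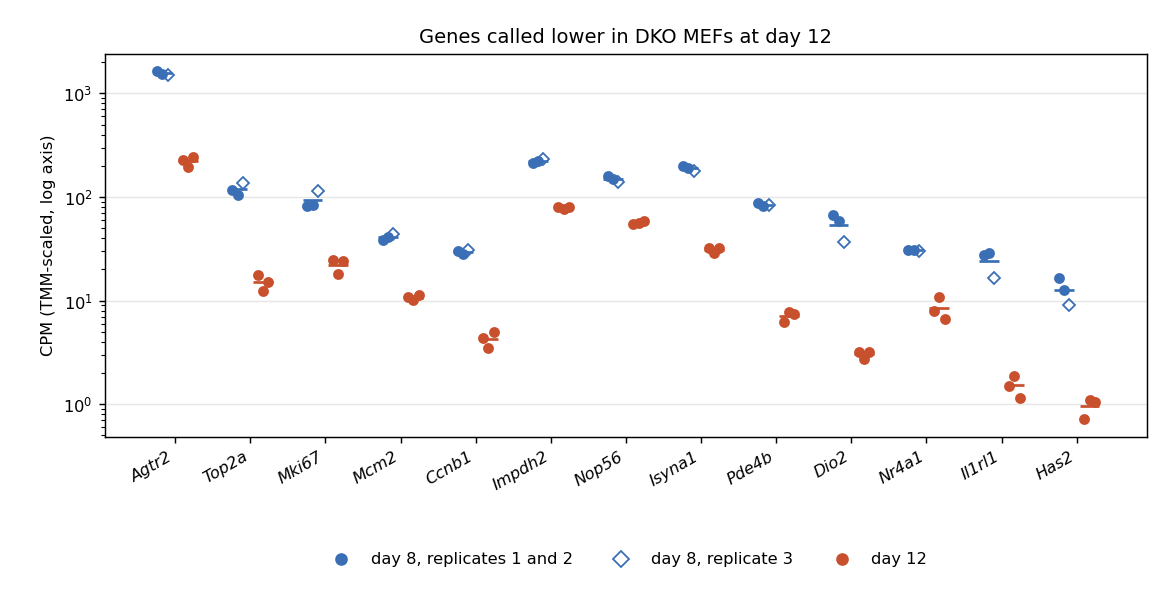
CPM (log axis) of 13 genes called lower at day 12 in the DKO libraries of day 8 (blue, open diamond for replicate 3) and day 12 (red), with bars at the group means. In each gene the 3 day 12 points lie below the 3 day 8 points, and for Agtr2 and Pde4b the diamond lies close to the other day 8 points.

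Genes induced by cyclic AMP were lower in part. Of 25 tested, 11 were called lower and 1 higher (median -0.40), 10 and 4 without DKO day 8 replicate 3, and 8 to 11 were lower without another library (3 higher without day 8 replicate 1). Of all genes 11.5% were called lower and 12.6% higher, so the number higher with all libraries was under that share. Pde4b (chromosome 4, 102087543 to 102607259), a phosphodiesterase that degrades cyclic AMP, was at the head of all genes called lower, with 87.003, 81.7 and 83.4 CPM at day 8 and 6.204, 7.69 and 7.49 at day 12, a log2 fold change of -3.56 ± 0.10 (adjusted p = 8.1e-05). Dio2 (chromosome 12, 90724552 to 90738438), the deiodinase that activates thyroid hormone in brown fat, had 66.8, 58.9 and 36.98 CPM at day 8 and 3.22, 2.72 and 3.19 at day 12 (-4.15 ± 0.25, adjusted p = 0.000211). In both genes every day 12 library was far below every day 8 library. Pde4b is also named by the smallest p, a rule that required no overlap. Dio2 had the largest decrease among named genes with a mean of at least 10 CPM at day 8, and day 8 replicate 3 was the lowest of its day. The orphan receptor genes Nr4a1, Nr4a2 and Nr4a3, immediate early genes of cyclic AMP signalling, had log2 fold changes of -1.86 ± 0.17, -1.67 ± 0.24 and -2.72 ± 0.39 (adjusted p = 0.000581, 0.00255 and 0.00243). Nr4a1 had 30.6, 31.1 and 29.9 CPM at day 8 and 7.91, 10.7 and 6.62 at day 12. Fos, another immediate early gene, was the one called higher, with 20.2, 21.5 and 22.6 CPM at day 8 and 39.1, 69.2 and 42.2 at day 12 (1.23 ± 0.22, adjusted p = 0.00677) and day 12 replicate 2 above the other 2. Of the 11 genes called lower, 8 had a promoter in RefSeq and 1, Dio2, held a full CRE there, against 2.03% of all genes and 3.47% of those tested.

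Targets of the other withdrawn agents were read next. Of 30 glucocorticoid-induced genes, 6 were called higher and 4 lower (median -0.09), against 12.6% and 11.5% of all genes, with 14 positive and 16 negative log2 fold changes. The number lower was near that share, and without DKO day 8 replicate 3 the numbers were 6 and 5. The number higher was 3 without day 12 replicate 2 or 3, and the number lower 2 without day 12 replicate 1 or 3. The 6 called higher were Hif3a, Per2, Pdk4, Gadd45g, Zbtb16 and Trim63. Hif3a rose by 0.68 (adjusted p = 0.000712), Gadd45g by 0.75 (adjusted p = 0.0208) and Zbtb16 by 0.64 (adjusted p = 0.0277). Without day 8 replicate 3 Gadd45g and Zbtb16 had 0.58 and 0.48, short of 1.5-fold. Trim63 was not followed under other settings. Fkbp5, a chaperone of the receptor and one of its most direct targets, had 414, 376 and 288 CPM at day 8 and 408, 414 and 389 at day 12 with overlapping libraries (0.17, adjusted p = 0.37). Tsc22d3 (GILZ) had 245, 259 and 248 CPM at day 8 and 364, 334 and 362 at day 12, higher in every library but short of 1.5-fold (0.495 ± 0.08, adjusted p = 0.00319). Lcn2, lipocalin 2, was called lower, with 104, 89.7 and 88.2 CPM at day 8 and 16.5, 26.1 and 17.6 at day 12 (-2.23 ± 0.19, adjusted p = 0.000476). Of 28 PPARG target genes, 10 were called higher and none lower, and 27 had a positive log2 fold change (median 1.24), 16 and 1 without day 8 replicate 3, and 6 without day 8 replicate 2 or any single day 12 library. Of 11 genes induced by thyroid hormone, which both media contained, 4 were called higher and none lower, 4 and 1 without day 8 replicate 3, and 2 or 3 were higher without another library. The receptor gene Thrb had 30.8, 29.1 and 24.6 CPM at day 8 and 51.98, 52.1 and 55.7 at day 12 (0.92 ± 0.10, adjusted p = 0.000894). Of 18 circadian clock genes, several of which respond to glucocorticoids, 9 were called higher and 1 lower (median 0.59), 10 and 1 without day 8 replicate 3, and 4 to 6 higher without another library. Bhlhe40, a repressor of the clock, had 29.6, 26.7 and 26.5 CPM at day 8 and 57.4, 59.5 and 58.95 at day 12 (1.09 ± 0.07, adjusted p = 0.000233), and the period genes Per2 and Per3 rose by 1.12 ± 0.12 and 1.12 ± 0.11 (adjusted p = 0.00102 and 0.00071). Hlf, an output factor of the clock, was lower, with 12.1, 16.6 and 24.4 CPM at day 8 and 4.09, 4.65 and 3.77 at day 12 (-2.09 ± 0.27, adjusted p = 0.00171).

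Genes of ribosome biogenesis and nucleotide synthesis, a list written after the values had been seen, were lower. Of 29 tested, 20 were called lower and none higher (median -0.77), 22 without DKO day 8 replicate 3 and 19 to 21 without another library. Impdh2 (chromosome 9, 108560286 to 108565584), which makes the precursor of guanine nucleotides, had 215, 223 and 231 CPM at day 8 and 80.2, 76.9 and 79.5 at day 12, a log2 fold change of -1.499 ± 0.07 (adjusted p = 0.000149). Nop56, a core protein of nucleolar RNA particles, had 158, 148 and 140.4 CPM at day 8 and 55.004, 56.3 and 58.6 at day 12 (-1.39 ± 0.07, adjusted p = 0.000149), and Cad, the first enzyme of pyrimidine synthesis, fell by 1.33 (adjusted p = 0.000149). In Impdh2 and Nop56 the libraries of a day lay close together, and the days did not overlap. The rule of the smallest p, which also names Impdh2, required this separation. Other genes with the smallest p-values on the falling side were Isyna1, which makes inositol phosphate from glucose phosphate, with 198, 192 and 177 CPM at day 8 and 31.97, 28.8 and 32.2 at day 12 (-2.61 ± 0.08, adjusted p = 8.1e-05), Agtr2, the angiotensin receptor of fetal mesenchyme, with 1635, 1536 and 1516 CPM at day 8 and 228, 196 and 242 at day 12 (-2.81 ± 0.11, adjusted p = 0.000132), Bmper, a modulator of BMP signalling, at -2.12 ± 0.09, Ptgfr, the receptor of prostaglandin F, at -2.89 ± 0.13, and Chl1, a cell adhesion protein, at -2.69 ± 0.12. By size, Il1rl1, the receptor of interleukin 33, with -3.99 and Has2, a hyaluronan synthase, with -3.73 followed Dio2 (adjusted p = 0.000304 and 0.000415).

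Matrix, contractile and progenitor genes were described by 5 lists, to be read against the 12.6% of all genes called higher and the 11.5% called lower. The numbers higher of the collagens, other matrix proteins and proteases were near or under that share. Of 18 collagen chains, 4 were called lower and 1 higher (median -0.25), 6 and 1 without DKO day 8 replicate 3, and none higher without day 8 replicate 1. Col3a1 (chromosome 1, 45311538 to 45349706), the chain of type III collagen, had 12810, 11424 and 8852 CPM at day 8 and 3619, 3299.6 and 3716 at day 12, a log2 fold change of -1.64 ± 0.16 (adjusted p = 0.000671). Every day 12 library was far below every day 8 library. Col1a1, of type I collagen, had 4422, 4209 and 1742 CPM at day 8 and 2927, 3059 and 3088 at day 12, with day 8 replicate 3 below and the other day 8 libraries above day 12 (-0.19, adjusted p = 0.673). Without replicate 3 its log2 fold change was -0.52 (adjusted p = 0.00137), short of 1.5-fold, and without day 8 replicate 1 it was 0.02. Of 25 other matrix proteins, 6 were called lower and 4 higher (8 and 4 without day 8 replicate 3, and 2 higher without any single day 12 library). Vcan, the proteoglycan versican, had 2207, 2104 and 2308 CPM at day 8 and 665, 623 and 646 at day 12 (-1.78 ± 0.09, adjusted p = 0.000149) and Plod2, a collagen lysyl hydroxylase, fell by 1.51, whereas Ccn2, connective tissue growth factor, rose from 51.7, 62.2 and 24.6 to 264, 279.6 and 265 CPM (2.55 ± 0.33, adjusted p = 0.00214). Of 17 matrix proteases and inhibitors, 3 were called lower and 2 higher (6 and 3 without day 8 replicate 3, and 1 higher without day 12 replicate 1 or 3), with Mmp2, gelatinase A, at -0.89 ± 0.13 (adjusted p = 0.00295). Of 18 contractile genes, 4 were called higher and none lower (median 0.78, 3 without day 8 replicate 3 and 8 without day 8 replicate 2). Cnn2, a calponin, rose by 0.78 ± 0.11 and Vcl, vinculin of focal adhesions, by 0.78 ± 0.14 (adjusted p = 0.00208 and 0.00634). Acta2, smooth muscle actin, had 42.4, 106 and 65.7 CPM at day 8 and 149, 81.4 and 144 at day 12 with overlapping libraries and was not called (0.799, adjusted p = 0.137). Of 25 progenitor and preadipocyte markers, 7 were called lower and 4 higher, 8 and 6 without day 8 replicate 3, and 4 or 5 lower without another library. The list was mixed, with 10 positive and 15 negative log2 fold changes. The 4 called higher were Klf2, Ebf1, Anxa3 and Zfp423, which were not followed under other settings. Cd24a, a surface protein of adipocyte progenitors, had 86.96, 99.9 and 144 CPM at day 8 and 16.1, 12.1 and 16.2 at day 12 (-2.896 ± 0.23, adjusted p = 0.000433), and Thy1 had 361, 452 and 669 CPM at day 8 and 161, 134 and 158 at day 12 (-1.71 ± 0.23, adjusted p = 0.0022). In both genes day 8 replicate 3 was the highest library. The receptor genes Pdgfra and Pdgfrb stood at -0.48 (adjusted p = 0.0106) and 0.54 (adjusted p = 0.00952), both short of 1.5-fold. Pdgfrb passed that size without day 8 replicate 3 (0.63) and without day 12 replicate 2 (0.62).

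Imprinted growth genes, a list written after the values had been seen, held 8 genes called lower and 1 higher of 17 (median -1.06), 12 and 1 without DKO day 8 replicate 3, and 5 or 6 lower and none higher without any other library. Igf2 (chromosome 7, 142650766 to 142666816), a fetal growth factor, had 3849.7, 3490 and 2056 CPM at day 8 and 1290.1, 1229 and 1331 at day 12 (-1.29 ± 0.23, adjusted p = 0.00569). H19, the non-coding RNA beside Igf2, had 7985, 7516 and 4922 CPM at day 8 and 2464, 2363 and 2545 at day 12 (-1.47 ± 0.19, adjusted p = 0.00178). Mest, the third example, fell from 476, 411 and 341 to 85.5, 71.5 and 93.02 CPM (-2.296 ± 0.16, adjusted p = 0.00026). In these 3 genes day 8 replicate 3 was the lowest of its day and still above all of day 12.

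Markers of other cell types were read in the same libraries. The MEF cultures held macrophage transcripts, and of 16 macrophage markers 7 were called higher and none lower (median 0.53), 8 without DKO day 8 replicate 3. Their summed level was 4008, 5565.5 and 7028.5 CPM at day 8 and 4833, 4230 and 4816 at day 12, so that the sums overlapped, and no marker was at 0. Itgam, an integrin of myeloid cells, had 50.3, 62.7 and 76.98 CPM at day 8 and 165, 160.3 and 165 at day 12 (1.37 ± 0.15, adjusted p = 0.000956) and Mpeg1, a pore protein of macrophages, 60.5, 82.2 and 117 CPM at day 8 and 345, 296 and 343 at day 12 (1.92 ± 0.24, adjusted p = 0.00169). Ptprc, the leukocyte antigen CD45, rose by 1.11 ± 0.16 (adjusted p = 0.00262), whereas Cd68 was not called (0.35, adjusted p = 0.354). Without day 8 replicate 3, in which the macrophage sum was highest, Cd68 was called at 0.71 (adjusted p = 0.00615). Without day 8 replicate 1, 1 of the markers was called lower. Of 18 genes typical of tissue-resident macrophages, a list written after the values had been seen, 9 were called higher and none lower (median 1.09, 8 to 10 without any single library). Cd5l (chromosome 3, 87357881 to 87371073), a secreted protein of macrophages, had 2.41, 2.78 and 2.33 CPM at day 8 and 22.02, 21.3 and 22.7 at day 12 (3.13 ± 0.12, adjusted p = 9.87e-05), and Fcna, a ficolin of macrophages, 2.32, 2.01 and 1.44 CPM at day 8 and 22.4, 22.7 and 24.8 at day 12 (3.61 ± 0.18, adjusted p = 0.000149). Pld4 and Folr2 rose by 3.34 ± 0.21 and 3.13 ± 0.22 (adjusted p = 0.00022 and 0.000268). F13a1 and Arg1, among the genes with the largest increase, are also known from macrophages. F13a1 is counted both in this list and among the complement and coagulation genes. It had 0.754 CPM in day 8 replicate 3, the library with the highest macrophage sum, and 26.1 and 27.1 in the other day 8 libraries. The part of macrophages in the other results was not tested. Endothelial, skeletal muscle and epithelial markers summed to at most 28.3 CPM in any of the 6 libraries, and the defining genes Pecam1, Myod1 and Epcam were at 0.189, 0 and 0.113 CPM or less. Blood and liver markers summed to 13.02 CPM or less, most of it Alb, albumin, at 12.1, 7.69 and 0.969 CPM at day 8 and 0.454, 0.506 and 0.966 at day 12. Its call as lower (adjusted p = 0.0282) was lost without any single library but day 8 replicate 3, with adjusted p-values of 0.0602 to 0.0973. Of 9 neural and glial markers tested, 4 were called lower and 1 higher (3 and 1 without day 8 replicate 3), and their sum was 218, 202 and 290 CPM at day 8 and 104, 130 and 110 at day 12. Nes, the intermediate filament nestin, had 118, 113 and 184 CPM at day 8 and 46.1, 63.3 and 54.1 at day 12 (-1.35 ± 0.22, adjusted p = 0.00462), and the glial gene Sox10 fell by 0.99 (adjusted p = 0.00441). The marker called higher with all libraries was S100b, which was not followed under other settings. A second marker was called higher without day 8 replicate 1.

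The lists that follow stand beside 12.6% of all genes called higher and 11.5% called lower. Of 20 chemokine and cytokine genes, 8 were called lower and 1 higher, the latter under the share of all genes (median -0.54). The numbers were 9 and 1 without DKO day 8 replicate 3, and 5 lower without day 12 replicate 1 or 3. None was higher without any single day 12 library. Cxcl5, a neutrophil chemokine, had 14.04, 10.8 and 3.63 CPM at day 8 and 0.832, 1.01 and 0.918 at day 12 (-3.36 ± 0.53, adjusted p = 0.004) and Ptgs2, the inducible cyclooxygenase, 6.16, 9.27 and 17.9 CPM at day 8 and 2.53, 2.03 and 1.59 at day 12 (-2.43 ± 0.43, adjusted p = 0.00597). Of 26 interferon-stimulated genes, 5 were called higher and 1 lower with all libraries (median 0.43), and 15 and 1 without day 8 replicate 3 (median 0.90). With all libraries the number higher was near the share of all genes and the number lower under it. None was lower without day 8 replicate 2 or day 12 replicate 1 or 2. Gbp2, an interferon-induced GTPase, had 3.61, 3.41 and 2.298 CPM at day 8 and 11.2, 10.7 and 10.8 at day 12. Ifi27 (1.26 ± 0.11) and Gbp2 (1.81 ± 0.19) were called in both fits (adjusted p = 0.000483 and 0.00089 with all libraries). Of 14 complement and coagulation genes, a list written after the values had been seen, 10 were called higher and 2 lower (median 1.70), 9 and 3 without day 8 replicate 3, and 8 or 9 higher and at most 1 lower without another library. C1ra, a protease that starts the classical pathway, had 43.3, 40.5 and 30.3 CPM at day 8 and 152, 146 and 150.2 at day 12 (1.97 ± 0.13, adjusted p = 0.00026), and C4b, the fourth component, 21.9, 19.05 and 5.24 CPM at day 8 and 136, 189 and 141 at day 12 (3.34 ± 0.51, adjusted p = 0.00376). Cp, ceruloplasmin, is counted among the 10 though it is not a complement or coagulation protein, and rose by 1.699 ± 0.09 (adjusted p = 0.000149). Of 27 glutathione and antioxidant genes, 7 were called higher and none lower (9 higher without day 8 replicate 3, and 3 lower without day 8 replicate 1), among them Gpx4, which detoxifies lipid peroxides, at 0.99 ± 0.13 and Prdx3, a mitochondrial peroxiredoxin, at 1.28 ± 0.21 (adjusted p = 0.00174 and 0.00414). Of 22 genes of the unfolded protein response, 1 was called higher (none without day 8 replicate 3 or day 12 replicate 2 or 3) and 1 lower (2 without day 8 replicate 1, none without any single day 12 library), both under the shares of all genes, and Hspa5, the chaperone BiP, was not called (-0.15, adjusted p = 0.21).

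The step was then set beside the same step in WT MEFs, to ask whether it differed with the genotype. In WT cells 1892 of 15292 genes (12.4%) were called higher and 1390 (9.09%) lower, 21.5% in all, and without WT day 8 replicate 2 27.3% of 15655 were called. A test of the difference between the 2 steps, the interaction of genotype and day over 12 libraries, called 0 of 15994 genes (0%) with edgeR, 40 with DESeq2 and 5 with limma-voom, and 1215 had an unadjusted p under 0.05. Without DKO day 8 replicate 3 it called 5, without WT day 8 replicate 2 it called 8, and without WT day 8 replicate 3 it called 1. The smallest adjusted p was 0.0566, shared by Pttg1, Isyna1 and Il4ra, none of which was called. WT day 8 replicate 2 also stood apart from its group (correlations of 0.976 and 0.977 with it). Without this library and DKO day 8 replicate 3, a choice made after the data had been seen, the test called 98 of 16220 genes (0.604%), 29 more positive (0.179%) and 69 more negative (0.425%) in DKO cells. Isyna1 fell in both genotypes, by 2.61 in DKO cells and by 1.61 in WT cells with all libraries of each. In WT cells it had 142, 184 and 144 CPM at day 8 and 52.1, 51.9 and 50.6 at day 12. In the fit without the 2 libraries the difference was -1.17 ± 0.08 (adjusted p = 8.06e-07, and 0.0566 with all 12 libraries). Emb, the cell surface protein embigin, had a lower level at day 12 in both, from 468, 471 and 371 to 66.7, 60.5 and 71.8 CPM in DKO and from 488, 418 and 484 to 142, 137 and 141 in WT cells, a difference of -1.02 ± 0.09 (adjusted p = 1.27e-05, and 0.103 with all 12 libraries). Pttg1 (chromosome 11, 43420250 to 43426251), securin, which holds sister chromatids until anaphase, had 11.7, 13.7 and 16.9 CPM at day 8 and 22.5, 20.3 and 20.5 at day 12 in DKO cells and 7.44, 10.4 and 6.26 CPM at day 8 and 2.93, 2.91 and 2.46 at day 12 in WT cells. All DKO libraries of day 12 were above those of day 8 (log2 fold change 0.58, adjusted p = 0.0198, and 0.73 (adjusted p = 0.000426) without replicate 3), and all WT libraries of day 12 were below those of day 8. The difference for Pttg1 without the 2 libraries was 2.04 ± 0.18 (adjusted p = 1.61e-05, and 0.0566, not called, with all 12 libraries). Itih5, a hyaluronan-binding protein, rose in both genotypes, by 3.12 in DKO and 1.43 in WT cells. In the fit without the 2 libraries the difference was 1.73 ± 0.20 (adjusted p = 0.000284, and 0.2 with all 12 libraries). Several genes described above fell further in DKO cells in that fit, namely Pde4b (difference -0.79, adjusted p = 0.00282), Dio2 (-1.17, 0.000394), Agtr2 (-0.79, 0.000958), Col3a1 (-0.88, 0.000222) and Nes (-0.99, 0.00841). With all 12 libraries their adjusted p-values for the difference were 0.157, 0.492, 0.103, 0.329 and 0.307. Lep had 2.64, 1.68 and 1.33 CPM at day 8 and 1.17, 1.43 and 0.725 at day 12 in DKO and 0.369, 0.489 and 0.265 CPM at day 8 and 0.8697, 0.745 and 1.07 at day 12 in WT cells, opposite in sign, with a difference of -2.43 ± 0.58 (adjusted p = 0.0451, and 0.426 with all 12 libraries) at levels under 3 CPM. Cd5l rose more in WT cells in that fit (difference -1.07, adjusted p = 0.00304), and with all 12 libraries the difference was -0.78 (adjusted p = 0.415). None of the 30 cell cycle genes and none of the 25 fatty acid synthesis genes was called in either test of the difference. These tests called 0% and 0.604% of all genes, so the absence of calls in short lists does not show that the steps were alike. With all 12 libraries the median differences of the 2 lists were -0.28 and -0.08. Of the cell cycle genes 27 had a negative difference and 9 an unadjusted p under 0.05, and of the synthesis genes 16 and 1. Without the 2 libraries these numbers were 27 and 10, and 17 and 9, where 2530 of all 16220 genes had an unadjusted p under 0.05. For Adipoq the difference was 0.41 ± 1.33 with all 12 libraries and 0.39 ± 0.18 without the 2 libraries (adjusted p = 0.987 and 0.331).

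**Figure D5:**
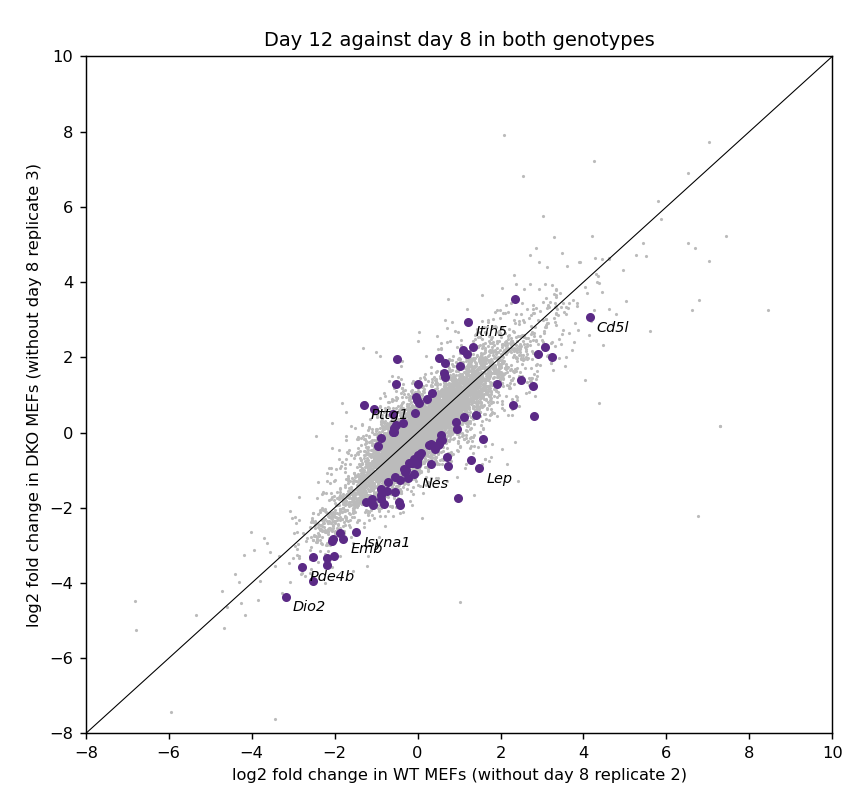
Log2 fold change of day 12 against day 8 in WT MEFs (x axis, without day 8 replicate 2) and DKO MEFs (y axis, without day 8 replicate 3) for 15184 genes, with a line of equal change. Purple points are the 98 genes called in the test of the difference without these libraries, 29 above and 69 below the line.

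The step before, day 8 against day 4 in DKO cells, shares the day 8 libraries, so its values are set side by side only. With all 6 libraries edgeR called 0 of 15337 genes (0%) for it, DESeq2 145 and limma-voom 0, with 1486 at an unadjusted p under 0.05. Without the number 3 libraries of both days, 1083 genes (7.02%) were called higher and 820 (5.32%) lower of 15426 (12.3%). These libraries each lay toward the other day and were left out after the data had been seen. Leaving them out widens the gap between the days by construction, so the rise in calls is not a result about the step. In this reduced fit Fabp4 had 2.53 and Adipoq 3.16 from day 4 to day 8, beside 1.04 and 1.9995 from day 8 to day 12 without replicate 3. Cpt1b had 1.34 and then 3.61, Abcd2 0.18 and then 2.07, and Hk2 -0.06 and then 1.48. On the falling side Pde4b had -0.48 and then -3.57, Dio2 -0.35 and then -4.37, Impdh2 -0.13 and then -1.47, and Top2a -0.74 and then -2.86. Col3a1 and Agtr2 had opposite signs in the 2 steps, with 1.28 and 1.24 before day 8 and -1.78 and -2.84 after it. For the adipocyte markers the counts were 24 of 30 called higher before day 8 and 20 of 30 after it, and for the glycolysis genes 2 and 13 of 21. For the cell cycle genes they were 15 and 27 of 30 called lower, and for ribosome biogenesis 0 and 22 of 29. With all 6 libraries none of these genes was called from day 4 to day 8. The medians were then 1.45 for adipocyte markers, 0.0015 for glycolysis, -0.40 for cell cycle and -0.007 for ribosome biogenesis. Cpt1b, Abcd2 and Hk2 had 0.58, 0.08 and -0.096 in that fit (adjusted p = 0.694, 0.795 and 0.739).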

How the data were processed

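RNA was sequenced as 50 base paired reads. Per the submitters' processing notes, cutadapt 1.18 removed adapters, STAR 2.7.0f placed the reads on mm10 and RSEM 1.3.0 gave the expected counts per gene that the authors deposited, which are estimates that need not be whole (5.49% to 6.63% of the values in the 6 libraries were not). The labels call the RNA polyA, whereas the study's methods name a total RNA kit. Libraries were grouped by the titles in the labels.

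Expected counts were rounded and tested in R 4.3.3 with edgeR 4.0.16 (quasi-likelihood test, robust, TMM factors, genes kept by filterByExpr, day the only term), with Benjamini-Hochberg adjustment over all genes tested. Calls needed an adjusted p below 0.05 and a change of 1.5-fold or more. CPM were scaled within the 6 libraries of a genotype, and no fold is given where a gene had at most 3 counts in every library. The difference between genotypes was the interaction of genotype and day. DESeq2 1.42.0 and limma 3.58.1 were alternatives, beside other scalings, filters, thresholds, a fit over all 24 MEF libraries, a replicate block and leaving out each library. The test was tried on simulated counts with the same small relative spread for every gene and no library apart from its group. That setting differs from these day 8 libraries, so the trial does not speak to their spread.

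The libraries, gene lists and named genes were chosen with earlier results of these data known, and 6 lists were added after the values had been seen. Named genes were those the study names, and up to 5 called members of each list with its first 2 genes. The 8 with the smallest p in each direction were taken from called genes whose libraries of the 2 days did not overlap. The 5 with the largest change and 6 from the test of the difference, in each direction, completed the names. Gene models without a name were skipped, and some genes that the rule names are not reported here. All 55450 identifiers matched the GENCODE annotation of mm10, the source of the coordinates. Promoters came from RefSeq. The depth of 21261908 to 27061316 counts limits what low genes can show, and p-values cover the spread of 3 libraries a day.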

Additional observations from a re-analysis of the deposited data

How the results depend on the processing

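The number of genes called in the DKO step was 3677, and 3794 with library size only (1697 higher and 2097 lower), 4064 with DESeq2, 3856 with limma-voom and quantile normalization, 3528 without a filter on low counts and 3705 with 0.5 CPM in at least 2 libraries. It was 5997 without a fold change threshold, 3131 of them lower, and 2058 at 2-fold, 1181 higher and 877 lower. Leaving out 1 library gave 2776 to 4186 calls, 1410 to 2254 higher and 1364 to 1932 lower. The same thresholds gave 6194 and 1809 in the WT step, and leaving out 1 library 2508 to 4270. For the difference of the steps, where the count was 0, DESeq2 called 40, limma-voom and the fit without a filter 5 each, and library size only and the fit over 24 libraries 1 each. Leaving out 1 library gave 0 to 8, and leaving out both day 8 libraries that stood apart 98. For day 8 against day 4 the count of 0 became 145 with DESeq2, 1 without a filter, 58 in the fit over 24 libraries and 1903 without both number 3 libraries.

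Of 104 named genes called in the DKO step and followed under the alternatives, 91 kept their call under every alternative and 13 lost it in at least 1, 9 of them at the 2-fold threshold. Of 26 named genes that were not called, 14 were called under at least 1 alternative. The sign of the log2 fold change reversed for 3 of these when 1 library was left out. It ranged from -0.52 to 0.023 for Col1a1 (0.023 without DKO day 8 replicate 1), from -0.34 to 0.66 for Hmgcs1 and from -0.50 to 0.034 for Slc2a1 (-0.34 and 0.034 without DKO day 8 replicate 3). The cause was not tested.

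Deviations of same-numbered libraries of days 8 and 12 correlated at -0.08, -0.04 and 0.01, so no pairing by replicate number was seen. With 3 libraries a day, and day 8 replicate 3 apart from its group, these values cannot exclude pairing. With the replicate number as a block the counts were 3312 in the DKO step, 2874 in the WT step, 0 for the difference and 0 for day 8 against day 4. None of the 3 day 8 libraries correlated best with its own number. Among the named genes followed under the alternatives, Alb was not called with the block and Pttg1 was, and no other call changed.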
